A study of Homo sapiens with 6 samples.

Results

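The genes described here are 10 genes of the core ATF4 stress response, *ATF4*, *DDIT3*, *CHAC1*, *TRIB3*, *SESN2*, *DDIT4*, *NUPR1*, *ATF5*, *CEBPB* and *ADM2*, in RNA-seq of the gastric cancer cell line HGC27. They were picked by name, with their difference between the groups of this experiment already known, and each was found as 1 row among the 39739 gene rows. All 10 passed the filter on low values, which kept 23299 genes. Because the same contrast chose them, their differences between the groups are given as a description with no test.

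HGC27-FN1 3′-UTR cells carried the 3′-UTR of *FN1*, the fibronectin gene, delivered by lentivirus and stably overexpressed, and were selected with puromycin. HGC27-control cells are of the same line, and their labels carry the same treatment text. What vector they carried is not given in the labels, so whether the groups differ by the 3′-UTR alone cannot be told. Each group had 3 libraries. Nothing in the labels says that these came from separate cultures, so p-values measure only the spread between these libraries, which may be technical. The libraries held between 16357085 and 37037532 reads assigned to genes. *FN1* itself was at 0.777, 0.745 and 0.819 RPKM (reads per kilobase of exon per 1000000 reads assigned to genes) in HGC27-FN1 3′-UTR libraries and at 0.543, 0.474 and 0.532 RPKM in the controls, a log2 fold change of 0.52 (SE 0.11, adjusted p = 0.0292 by limma with Benjamini-Hochberg adjustment). That call was lost on leaving out any 1 of the 6 libraries (adjusted p 0.0614 to 0.0982 by limma). The single row of this gene takes reads from all of its exons, so the introduced 3′-UTR cannot be seen on its own.

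As for the labelled cell type, the summed RPKM of 6 mesenchymal markers lay between 353 and 409 in all libraries. Most of that sum is *VIM*, with means of 304.2 RPKM in HGC27-FN1 3′-UTR cells and 303.1 in control cells. *SNAI2* (4.557 against 2.463) and *TWIST1* (72.23 against 52.78) were higher in every HGC27-FN1 3′-UTR library than in any control. The groups overlapped for *VIM*, *ZEB1*, *ZEB2* and *CDH2*, the last near 0. The summed RPKM of 8 epithelial markers was 3.07 to 3.44 in the control libraries and 18.7 to 27.7 in the HGC27-FN1 3′-UTR libraries, with 4 of the 8 reaching 1 RPKM. The summed RPKM of 6 fibroblast markers was 117 to 134 and 170 to 173, respectively. Of the gastric mucosal markers, 2 of the 6 with a row reached 1 RPKM, and their sum was 1.84 to 1.97 in the controls and 4.31 to 6.05 in the HGC27-FN1 3′-UTR libraries. The endothelial markers summed to at most 0.0533 RPKM in any library, with *PECAM1* at 0, and the 4 blood cell markers with a row to between 2.9 and 3.6 RPKM. The epithelial, gastric and fibroblast sums and the mesenchymal genes *SNAI2* and *TWIST1* thus moved with the groups, as the genes below did. Not every marker in these sums did so. Most of the fibroblast sum is *COL3A1* and *COL1A1*, while *PDGFRA* was lower in every HGC27-FN1 3′-UTR library than in any control (1.99 against 2.31). The groups overlapped for *PDGFRB*, for the epithelial markers *CLDN4* and *KRT20*, and for the gastric markers other than *CTSE* and *MUC1*. The part of these markers in the differences below was not tested. In bulk RNA, fewer cells of a type and less RNA per cell cannot be told apart.

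ATF4 is a basic leucine zipper (bZIP) transcription factor at the centre of the integrated stress response. Kinases that sense amino acid shortage, unfolded protein in the endoplasmic reticulum, double-stranded RNA or haem deficiency phosphorylate the translation factor eIF2α, which lowers general protein synthesis while upstream open reading frames let translation of *ATF4* increase. ATF4 then pairs with C/EBP-family proteins on composite DNA elements and switches on genes for amino acid supply, for the braking of mTORC1 and, when stress persists, for cell death through DDIT3, also called CHOP. Its mRNA level is therefore only one of the steps that set ATF4 activity, and RNA-seq does not read the protein.

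The composite element that ATF4 and C/EBP factors bind, the CARE, was searched for as TGATGNAA on both strands in RefSeq promoters (GRCh38.p14, 250 bases before to 50 after each start site). It is shown because it divided the known ATF4 target genes described below. Of the 10 genes, 9 had a promoter entry, the exception being *NUPR1*, and 1 of the 9 held the letters in its window. Over all genes with a promoter, 4.46% held them. The CRE (TGACGTCA), a related bZIP site, was in none of the 9 promoters and in 2.25% of all genes, and the ER stress element (ERSE) was in none of the 9 and in 0.0916%. These are matches of letters in a short window and do not show binding. The lines below give the site of *CHAC1*, that of *ASNS* as the ATF4 target with the site that fell most on the log2(RPKM + 0.1) scale, that of the ATF4 partner *CEBPG*, that of *ATF3* as the target with the site that was not called, and the CREs of *PPP1R15A* and *GABARAPL1*, which rose. Each is written 5′ to 3′ with the element in capitals and 8 bases on either side.
CHAC1 (CARE): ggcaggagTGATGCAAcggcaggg
ASNS (CARE): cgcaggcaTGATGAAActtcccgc
CEBPG (CARE): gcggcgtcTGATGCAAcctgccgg
ATF3 (CARE): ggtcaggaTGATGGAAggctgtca
PPP1R15A (CRE): tctcttcgTGACGTCAgcacgccg
GABARAPL1 (CRE): tcgcggggTGACGTCAcagcccga

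The *CHAC1* site lies at chr15:40953254-40953277, read on the minus strand, against the direction of the gene, with the element 209 bases before the RefSeq start site and inside an exon of the deposited gene model, which starts further upstream. The *ASNS* site is at chr7:97872461-97872484 on the minus strand, 68 bases before the start site and in an exon of the deposited model. The *CEBPG* site is at chr19:33374063-33374086 on the plus strand, 42 bases before the start site and in an intron of the deposited model. The *ATF3* site, chr1:212565208-212565231 on the plus strand, and the *PPP1R15A* site, chr19:48872355-48872378 on the plus strand, lie outside the deposited genes, 191 and 58 bases before the start site. The *GABARAPL1* site is at chr12:10212839-10212862 on the plus strand, 30 bases before the start site and exonic in the deposited model.

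In HGC27-FN1 3′-UTR cells, 9 of the 10 genes were at a lower level in every library than in any control library, and *ATF5* was the exception. The largest differences were those of *DDIT4*, *NUPR1*, *ADM2* and *CHAC1*, whose mean RPKM was 64.8%, 58.9%, 59.2% and 53.9% lower. *ATF4* itself was 37.2% lower. Among all tested genes 21.7% had groups that did not overlap with the HGC27-FN1 3′-UTR libraries below, and 14.3% with them above. At an adjusted p under 0.05 in limma 7.36% were lower and 5.62% higher. The study's own criteria are a log2 fold change beyond 1 and an unadjusted P under 0.05. Applied to the same limma fit, they gave 0.815% lower and 1.65% higher, which are not the study's own results. Of the 10 genes, 9 had groups that did not overlap with the HGC27-FN1 3′-UTR libraries below, and 0 with them above. Nothing is read from these 2 counts, since this contrast chose the genes. For the same reason no calls by p-value are counted among the 10. The median log2 fold change of the 10 genes was -0.70, from -1.50 to -0.09, beside -0.04 over all tested genes, and 3.43% of tested genes had a log2 fold change below that median. Summed over the 10 genes, RPKM was 230.3, 227.6 and 227.4 in HGC27-FN1 3′-UTR libraries and 374.6, 369.5 and 375.4 in the controls. Without *ATF4*, which makes up most of it, the sum was 77.05, 75.65 and 74.35 against 130.3, 130.3 and 129.1.

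**Figure D1:**
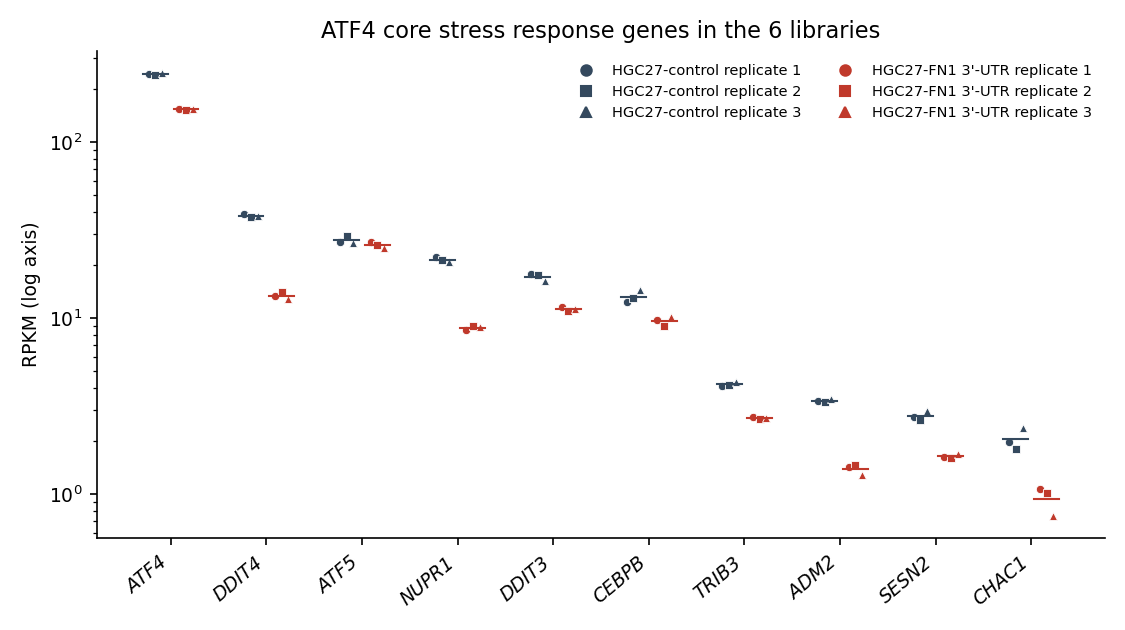
RPKM (log axis) of the 10 genes in each of the 6 libraries, ordered by their mean level in HGC27-control cells. Dark points are HGC27-control libraries, red points HGC27-FN1 3′-UTR libraries, the symbol gives the replicate number and the line the mean of 3. The groups overlap for *ATF5* alone, and *ATF4* stands far above the other genes, at 239.19 to 246.28 RPKM in the controls.

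*ATF4*, the transcription factor that gives the response its name, lies on the plus strand of chromosome 22 from 39519695 to 39522685 (GRCh38). It was at 153.23, 151.96 and 153.08 RPKM in HGC27-FN1 3′-UTR libraries and at 244.3, 239.19 and 246.28 RPKM in the control libraries. The groups were far apart and the libraries of each nearly equal, with means of 152.8 ± 0.695 and 243.3 ± 3.66 RPKM (SD, n = 3). The log2 fold change, on the scale of log2(RPKM + 0.1) as all those that follow, was -0.67 (SE 0.025), and 3.86% of tested genes had a lower one. It rested on 26869 and 55179 reads in the respective groups. The spread of *ATF4* between replicates, an SD of 0.016 on the log2 scale, was smaller than that of all but 0.717% of the genes at 1 RPKM or more, and 1.19 times what counting error alone gives. Processed pseudogene copies of *ATF4* have rows of their own, and reads could be split between them and the parent. *ATF4P3* had a mean of 5.862 RPKM in HGC27-FN1 3′-UTR cells and 10.74 in control cells, and *ATF4P4* of 2.334 and 3.432, both far below *ATF4* and lower in the same group.

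*DDIT3* encodes CHOP, a C/EBP-family factor induced by ATF4 that promotes cell death under lasting stress. Its RPKM was 11.49, 11.0 and 11.2 in HGC27-FN1 3′-UTR libraries and 17.72, 17.56 and 16.25 in control libraries. The groups did not overlap, and the mean was 34.6% lower, with a log2 fold change of -0.61 (SE 0.044). Exons of *MARS*, a methionyl-tRNA synthetase gene on the other strand, cover 355 bases (28.0%) of the *DDIT3* exons. *MARS* was also lower, at a mean of 12.9 against 17.3 RPKM.

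*CEBPB* encodes C/EBPβ, which dimerises with ATF4 on composite elements and has many roles outside stress. It was at 9.72, 9.0 and 10.15 RPKM in HGC27-FN1 3′-UTR libraries and at 12.27, 13.02 and 14.36 RPKM in control libraries. The groups did not overlap but differed by less than in the other 8 such genes, with a log2 fold change of -0.45 (SE 0.071) and a mean 27.2% lower. An antisense gene, *CEBPB-AS1*, covers 231 bases (11.8%) of its exons and was at 2.03 and 2.28 RPKM.

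*ATF5*, a bZIP factor whose translation is controlled like that of *ATF4* and which responds to mitochondrial stress, did not follow the others. It was at 27.17, 25.84 and 24.82 RPKM in HGC27-FN1 3′-UTR libraries and at 26.97, 29.23 and 26.49 RPKM in control libraries. The highest HGC27-FN1 3′-UTR library lay above 2 of the 3 controls, and the log2 fold change was -0.09 (SE 0.052), with 41.0% of tested genes below it. With 5318 and 7338 reads the depth was not low for this gene, and its spread between replicates was 2.18 times the counting error. *NUP62*, a nuclear pore gene on the other strand, covers 626 bases (21.2%) of its exons and was at 17.8 and 18.6 RPKM.

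A pair of the genes, *DDIT4* and *SESN2*, encode stress-induced inhibitors of mTORC1, the kinase complex that drives growth when amino acids are plentiful. *DDIT4* (REDD1), which acts through the TSC complex, showed the largest difference of the 10. It was at 13.25, 14.07 and 12.83 RPKM in HGC27-FN1 3′-UTR libraries and at 38.75, 37.24 and 38.12 RPKM in control libraries. The mean was 0.352 of the control mean, from 1924 and 7049 reads, with a log2 fold change of -1.50 (SE 0.041), and 87 of the tested genes (0.373%) with a lower one. A gene on the other strand known by its clone name, *RP11-442H21.2*, lies wholly within its exons and covers 847 bases (41.2%). That gene had a mean of 23.9 RPKM in HGC27-FN1 3′-UTR cells and 69.2 in control cells, a log2 fold change of -1.53, which is nearly that of *DDIT4*.

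*SESN2* encodes sestrin 2, a leucine sensor that holds back mTORC1 through GATOR2. It was at 1.63, 1.6 and 1.69 RPKM in HGC27-FN1 3′-UTR libraries and at 2.75, 2.63 and 2.98 RPKM in control libraries. The groups stood well apart, with a mean 41.2% lower, a log2 fold change of -0.73 (SE 0.068) and 397 and 873 reads.

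*TRIB3*, a pseudokinase induced by ATF4 and CHOP that binds ATF4 and dampens it, was at 2.74, 2.68 and 2.7 RPKM in HGC27-FN1 3′-UTR libraries and at 4.11, 4.18 and 4.33 RPKM in control libraries. The values within each group were almost the same, and their spread was 0.347 times what counting error gives. The log2 fold change was -0.62 (SE 0.047), a mean 35.6% lower, close to that of *ATF4* and *DDIT3*.

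*CHAC1* encodes an enzyme that degrades glutathione. It was the lowest of the 10 in both groups, at 1.07, 1.01 and 0.749 RPKM in HGC27-FN1 3′-UTR libraries and at 1.98, 1.8 and 2.36 RPKM in control libraries. The groups did not overlap, and the log2 fold change was -1.04 (SE 0.16). With 36 to 51 and 91 to 180 reads per library it had the widest spread of the 10, an SD of 0.222 on the log2 scale, 1.33 times the counting error.

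*NUPR1* encodes a small stress-induced nuclear protein that binds chromatin. It was at 8.56, 8.99 and 8.93 RPKM in HGC27-FN1 3′-UTR libraries and at 22.33, 21.31 and 20.73 RPKM in control libraries. The 2 groups were far apart, with a log2 fold change of -1.27 (SE 0.041), and 0.609% of tested genes had a lower one.

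*ADM2* encodes intermedin, a secreted peptide of the calcitonin family and the only ligand among the 10. It was at 1.42, 1.47 and 1.28 RPKM in HGC27-FN1 3′-UTR libraries and at 3.38, 3.35 and 3.46 RPKM in control libraries. No values overlapped, and the log2 fold change was -1.24 (SE 0.068), with 412 and 1312 reads. The genes of its receptor that had a row were near 0 in these cells. *CALCRL*, the receptor chain, had a mean of 0.08915 RPKM in HGC27-FN1 3′-UTR cells and 0.07781 in control cells and did not pass the filter, nor did the accessory chain genes *RAMP1* and *RAMP2*. *RAMP3*, another accessory chain gene, had no row.

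**Figure D2:**
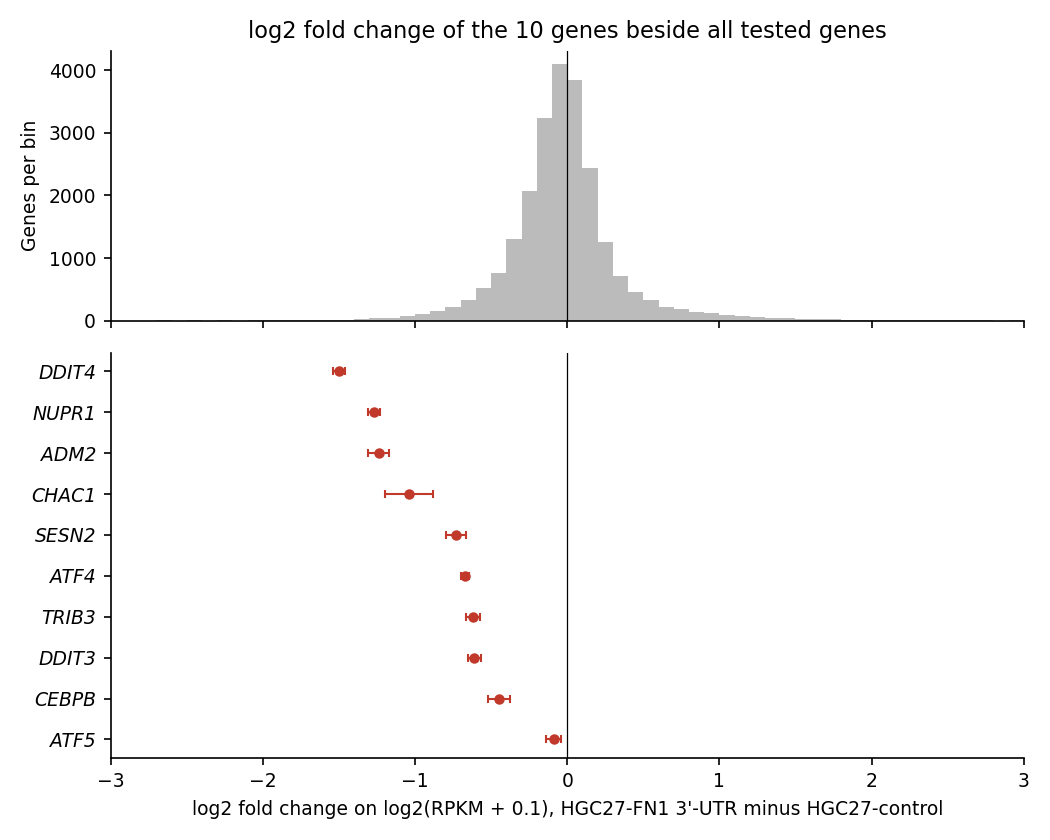
The upper panel counts all 23299 tested genes by log2 fold change in bins of 0.1, HGC27-FN1 3′-UTR minus HGC27-control, with values beyond 3 in the end bins. The lower panel gives the log2 fold change of each of the 10 genes with its standard error from limma. Their values run from -1.50 for *DDIT4* to -0.09 for *ATF5*, the only one in the middle of the distribution of all genes.

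Ordered by fold change, the 10 genes ran *DDIT4*, *NUPR1*, *ADM2*, *CHAC1*, *SESN2*, *ATF4*, *TRIB3*, *DDIT3*, *CEBPB* and *ATF5*. Between neighbours in that order the log2 fold changes differed by over 2 standard errors for *DDIT4* and *NUPR1* (0.23, SE 0.058) and for *CEBPB* and *ATF5* (0.37, SE 0.088) alone. Ordered by level per exon length in the controls, they ran *ATF4*, *DDIT4*, *ATF5*, *NUPR1*, *DDIT3*, *CEBPB*, *TRIB3*, *ADM2*, *SESN2* and *CHAC1*, and no neighbours overlapped over their 3 libraries. In HGC27-FN1 3′-UTR cells the order changed to *ATF4*, *ATF5*, *DDIT4*, *DDIT3*, *CEBPB*, *NUPR1*, *TRIB3*, *SESN2*, *ADM2* and *CHAC1*, again with no overlap between neighbours. *DDIT4* thus passed from above *ATF5* to below it, *NUPR1* from above *DDIT3* and *CEBPB* to below both, and *ADM2* from above *SESN2* to below it.

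How clear a difference between groups looks depends on the spread between replicates, and the genes were picked with their difference known. Their spread is therefore not independent of the choice and is given as a description. The median SD of the 10 genes on the log2 scale was 0.060, beside 0.078 over the 14652 genes with a mean of at least 1 RPKM. Their median ratio to the counting error was 1.15, beside 1.23. The mean deviation of the 10 genes from their own group means was 0.028, 0.010 and -0.038 in HGC27-FN1 3′-UTR replicates 1 to 3 and -0.009, -0.024 and 0.033 in the controls. No library stood apart in the level of these genes as a whole. The libraries were prepared with a stranded kit, but in the deposited values reads of overlapping genes on opposite strands did not look separated. Among 304 genes that lie wholly within the exons of a gene on the other strand, 0 had more reads than their host and the median read density was 0.738 of the host's, beside 0.68 for 119 such genes on the same strand. Reads of *DDIT4*, *DDIT3*, *ATF5* and *CEBPB* therefore cannot be told apart from those of their antisense partners in the shared exons.

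A list of 52 other known ATF4 or CHOP targets, of which 50 were tested, was drawn up with earlier results of these data known. So were the lists that follow, and their counts are a description, not independent support. At an adjusted p under 0.05 in limma with Benjamini-Hochberg adjustment, 29 (58.0%) were lower, beside 7.36% of all tested genes, and 2 (4.0%) were higher, beside 5.62%. The other 19 were not called. The median log2 fold change of the list was -0.29. The 4 with the largest change at 1 RPKM or more were all lower. *INHBE*, an activin subunit gene, was at 1.34, 1.13 and 1.32 RPKM against 4.05, 4.09 and 3.56 in the controls (log2 fold change -1.56, adjusted p = 0.000677 by limma). *ASNS*, asparagine synthetase, was at 10.53, 10.62 and 10.62 against 25.6, 25.03 and 25.36 RPKM (-1.25, adjusted p = 6.61e-05 by limma). Both had no overlap between groups. *GPT2*, a mitochondrial alanine transaminase, and *PCK2*, the mitochondrial phosphoenolpyruvate carboxykinase, fell by 1.01 and 0.93 on the log2 scale (adjusted p = 0.00019 and 0.00022 by limma).

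Further members of this list encode secreted or surface proteins. *VEGFA*, the angiogenic factor, fell by 0.60 and *VLDLR*, a lipoprotein receptor, by 0.61 (adjusted p = 0.000739 and 0.00197 by limma). *STC2*, a secreted glycoprotein, fell by 0.28 (adjusted p = 0.0163 by limma), a call lost on leaving out any 1 of 3 libraries (up to 0.07). *GDF15*, a stress cytokine often used as a readout of this response, was near its limit at 0.4564 and 0.383 RPKM and was not called (log2 fold change 0.20, adjusted p = 0.492 by limma). Of 4 targets linked to cell death, named after their values had been seen, none was called. Among all tested genes only 7.36% were called lower and 5.62% higher, so nothing is read from this count. *TNFRSF10B*, the death receptor DR5, was at 5.94, 5.58 and 5.99 RPKM against 5.54, 5.67 and 5.93 (adjusted p = 0.73 by limma), with overlapping groups. The adjusted p of the BH3-only genes *BBC3*, *BCL2L11* and *PMAIP1* was 0.997, 0.652 and 0.16 by limma. Levels of *BBC3* (0.9379 and 0.93 RPKM) and *BCL2L11* (1.032 and 1.104 RPKM) were low. *ATF3*, a bZIP factor induced in the same response, was at 3.364 and 3.983 RPKM and was not called (adjusted p = 0.0929 by limma).

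The promoter element described above was unevenly spread over this list. Of its 42 genes with a promoter entry, 13 (31.0%) held the CARE, beside 4.46% of all genes with a promoter. It was in 12 of 23 targets that fell (52.2%) and in 1 of 17 (5.88%) that were tested and did not fall, *ATF3*. The 12 were *ASNS*, *GARS*, *CARS*, *MARS*, *AARS*, *SLC3A2*, *SLC7A1*, *SLC1A5*, *JDP2*, *HERPUD1*, *CEBPG* and *FGF21*, which are an amino acid synthesis enzyme, tRNA synthetases, amino acid transporters, bZIP factors, an endoplasmic reticulum protein and a hormone. The CRE was in 2 of the 42 (4.76%), *PPP1R15A* and *GABARAPL1*, which were also the 2 that rose. The call of *GABARAPL1* was lost on leaving out any 1 of the 6 libraries (adjusted p up to 0.086 by limma), and that of *FGF21*, at 0.1648 and 0.4999 RPKM, any 1 of 5 (up to 0.115). The element was not looked for in these groups until their calls were known, many of these genes became known as ATF4 targets through it, and no test was made of the counts.

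**Figure D3:**
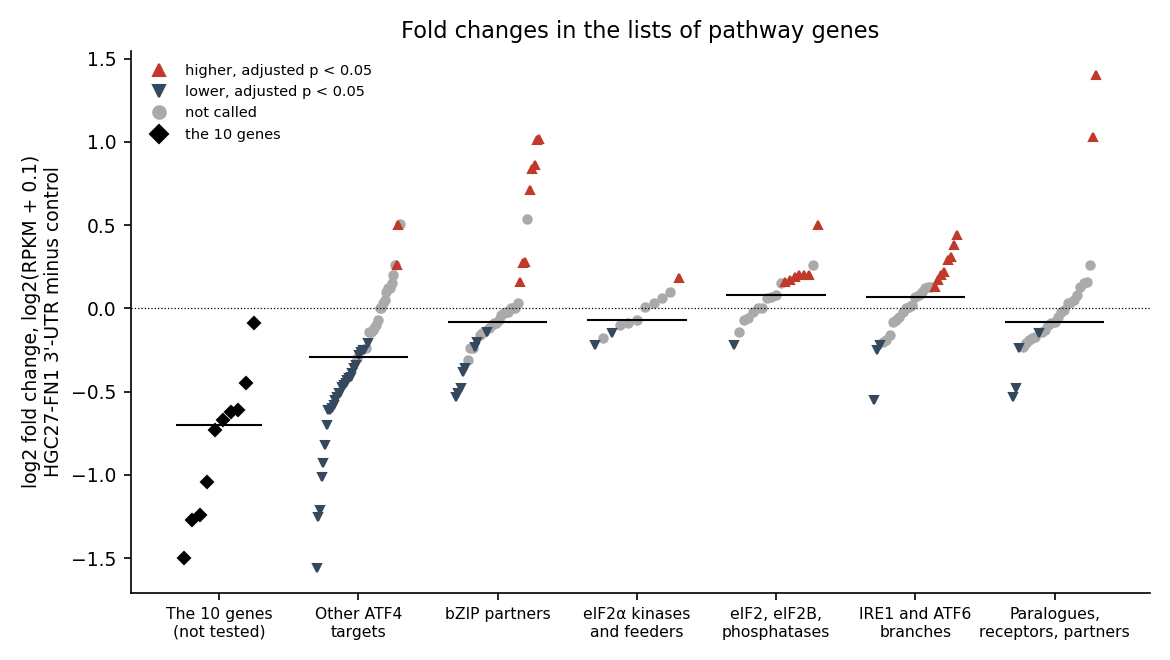
log2 fold change of each tested gene in 6 lists of the pathway, beside the 10 genes (diamonds). Triangles mark genes called at an adjusted p under 0.05 by limma, pointing up if higher and down if lower in HGC27-FN1 3′-UTR cells, grey points are not called, and lines are medians. The list of other ATF4 targets has its median at -0.29, those of the other 5 lists between -0.08 and 0.08.

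Upstream of ATF4, the differences were small. Of 11 genes for the eIF2α kinases and the proteins that feed signals to them, 1 was higher (9.09%, beside 5.62% of all tested genes) and 2 were lower (18.2%, beside 7.36%). Their log2 fold changes ran from -0.22 to 0.18, the median being -0.07. *EIF2AK1* (HRI), the haem-sensing kinase, had a mean of 36.74 RPKM in HGC27-FN1 3′-UTR cells and 40.92 in control cells, a fall of 0.15 on the log2 scale (adjusted p = 0.0178 by limma). *EIF2AK2* (PKR), which senses double-stranded RNA, rose from 9.836 to 11.13 RPKM (0.18, adjusted p = 0.0332 by limma). *EIF2AK3* (PERK), the kinase of the endoplasmic reticulum, was at 4.451 and 5.054 RPKM (-0.18, adjusted p = 0.0882 by limma), and *EIF2AK4* (GCN2), which senses uncharged tRNA, at 7.596 and 7.45 RPKM (0.03, adjusted p = 0.765 by limma). Neither was called. *NCK1*, an adaptor that binds PERK, fell by 0.22 (adjusted p = 0.0492 by limma). The calls of *NCK1*, *EIF2AK2* and *EIF2AK1* were lost on leaving out any 1 of 6, 5 and 3 of the libraries, with adjusted p up to 0.133, 0.117 and 0.0783 by limma. Kinase activity and eIF2α phosphorylation are not measured by RNA-seq.

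Of 19 genes for eIF2, its exchange factor eIF2B, the phosphatases and re-initiation factors, 7 were higher (36.8%, beside 5.62% of all tested genes) and 1 was lower (5.26%, beside 7.36%), with a median of 0.08. The higher calls numbered 1 to 6 with 1 library left out, the fewest without control replicate 2. *PPP1R15A* (GADD34) directs phosphatase to eIF2α and so ends the response, and it is itself a target of ATF4 and CHOP. It moved against the 29 other targets called lower, while 19 were not called and *GABARAPL1* was also called higher. It was at 27.95, 25.89 and 24.78 RPKM in HGC27-FN1 3′-UTR libraries and 18.76, 18.0 and 18.65 RPKM in controls (log2 fold change 0.50, adjusted p = 0.00329 by limma), with no overlap. Its constitutive counterpart *PPP1R15B* fell from 9.0 to 7.685 RPKM (-0.22, adjusted p = 0.0173 by limma). *EIF2S3*, the gamma subunit of eIF2, and *EIF2A*, an alternative initiation factor, each rose by 0.20 (adjusted p = 0.0128 and 0.0204 by limma). The call of *EIF2S3* was lost without control replicate 2 (adjusted p = 0.0575 by limma), and those of *EIF2A* and *PPP1R15B* on leaving out any 1 of 4 and 3 libraries (adjusted p up to 0.0822 and 0.0643 by limma).

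A list of 40 genes holds bZIP factors of the C/EBP, ATF and AP-1 families together with regulators of ATF4 stability and activity, such as the F-box gene *BTRC* and the acetyltransferase gene *EP300*, and *CEBPZ*, which shares the C/EBP name without a bZIP domain. Of these 36 were tested, and 8 were higher (22.2%, beside 5.62% of all tested genes) and 8 lower (22.2%, beside 7.36%). With 1 library left out the counts were 2 to 5 higher, the fewest without control replicate 2, and 3 to 6 lower, the fewest without that library or without HGC27-FN1 3′-UTR replicate 1 or 2. *BTRC* and *EP300* are among the lower and *CEBPZ* among the higher. *CEBPG*, an abundant partner of ATF4, was at 19.83, 19.79 and 19.62 RPKM against 27.53, 28.9 and 27.91 in the controls (log2 fold change -0.51, adjusted p = 0.000656 by limma). *CEBPA*, a factor of differentiation, fell by 0.53 (adjusted p = 0.022 by limma), a call lost on leaving out any 1 of 4 libraries (up to 0.0828). The AP-1 genes *JUN* and *FOSL2* rose, from 3.984 to 7.313 RPKM and from 2.384 to 3.943 RPKM (0.86 and 0.71, adjusted p = 0.00126 and 0.00321 by limma). *JUND* also rose, from 28.92 to 34.99 RPKM (0.27, adjusted p = 0.0121 by limma), a call lost without control replicate 2 (0.0523). At low levels *FOS* rose from 0.2394 to 0.5821 RPKM and *FOSL1* from 0.2197 to 0.5458 RPKM (adjusted p = 0.0257 and 0.0379 by limma). Both of these calls were lost on leaving out any 1 of 5 libraries (up to 0.0831 and 0.111). The AP-1 gene *JUNB*, at 19.15 and 19.38 RPKM, was not called (adjusted p = 0.895 by limma), and *FOSB* did not pass the filter. Among the C/EBP genes *CEBPD*, at 2.547 and 2.611 RPKM, was not called (adjusted p = 0.881 by limma).

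For the other 2 branches of the unfolded protein response, through IRE1 and ATF6, 27 of 28 genes were tested. Of these 8 were higher (29.6%, beside 5.62% of all tested genes) and 3 lower (11.1%, beside 7.36%), and the median was 0.07. With 1 library left out 3 to 7 were higher, the fewest without HGC27-FN1 3′-UTR replicate 2 or control replicate 2, and 1 to 2 were lower. The chaperone genes *HSPA5* (BiP), *HSP90B1* (GRP94) and *DNAJB11* rose from 135.5 to 176.7, from 284.4 to 386.4 and from 39.85 to 49.5 RPKM, log2 fold changes of 0.38, 0.44 and 0.31 (adjusted p = 0.00512, 0.00108 and 0.00272 by limma). *HERPUD1*, an endoplasmic reticulum gene that ATF4 also controls and that holds a CARE, was lower in all libraries, at 2.53, 2.53 and 2.56 against 3.74, 3.48 and 4.07 RPKM (-0.55, adjusted p = 0.0064 by limma). The other lower genes were *XBP1*, the transcription factor of the IRE1 branch, from 31.24 to 26.84 RPKM, and *CRELD2*, from 11.96 to 10.06 RPKM (adjusted p = 0.0427 and 0.0391 by limma), and their calls were lost on leaving out any 1 of 6 and 5 libraries (up to 0.107 and 0.125).

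Close relatives of the 10 genes did not share their pattern in each case. *DDIT4L* (REDD2), the paralogue of *DDIT4*, was at 2.1, 1.97 and 2.3 RPKM in HGC27-FN1 3′-UTR libraries and at 0.643, 0.759 and 0.83 RPKM in controls, a rise of 1.40 on the log2 scale (adjusted p = 0.00171 by limma). *ADM*, adrenomedullin, the relative of *ADM2*, was at 4.7, 4.11 and 4.01 against 1.98, 1.81 and 2.37 RPKM, a rise of 1.03 (adjusted p = 0.00456 by limma). In both pairs every HGC27-FN1 3′-UTR library was above every control for the relative and below every control for the stress gene. Levels of *ADM2* were above those of *ADM* in the controls and below them in HGC27-FN1 3′-UTR cells. *DDIT4* stayed above *DDIT4L* in both groups.

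*TRIB2* moved the same way as *TRIB3*, from 2.771 to 1.885 RPKM (-0.53, adjusted p = 0.00804 by limma), while *TRIB1* was not called (0.13, adjusted p = 0.0755 by limma). *SESN3* fell from 0.7782 to 0.5306 RPKM (-0.48, adjusted p = 0.0321 by limma), and *SESN1* was not called (-0.19, adjusted p = 0.402 by limma). *CHAC2*, the constitutive glutathione-degrading paralogue, was far more abundant than *CHAC1*, at 25.58 and 22.92 RPKM, and was not called (0.16, adjusted p = 0.0605 by limma). *NUPR2* was at 3.04, 4.69 and 3.35 against 2.9, 3.07 and 3.09 RPKM and was not called (0.26, adjusted p = 0.321 by limma). *WDR59*, a subunit of the GATOR2 complex that sestrins bind, fell by 0.24 (adjusted p = 0.0334 by limma). In all, 27 of these 34 relatives, receptors and partners were tested, 2 of them higher (7.41%, beside 5.62% of all tested genes) and 4 lower (14.8%, beside 7.36%), and the lower calls numbered 1 to 2 with 1 library left out, 1 for each but control replicate 1. The call of *SESN3* was lost on leaving out any 1 of the 6 libraries and that of *WDR59* any 1 of 5 (adjusted p up to 0.117 and 0.118 by limma).

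**Figure D4:**
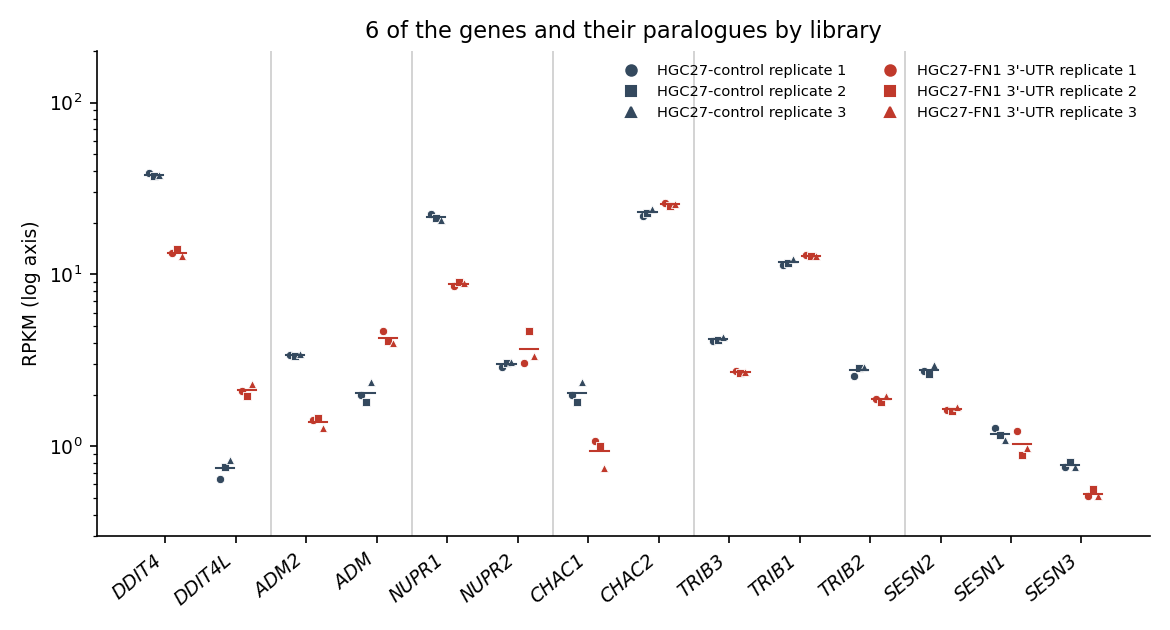
RPKM (log axis) by library of 6 of the 10 genes, each followed by its paralogues or relatives within the same grey lines. Dark points are HGC27-control libraries, red points HGC27-FN1 3′-UTR libraries, the symbol gives the replicate number and the line the mean of 3. *DDIT4L* and *ADM* lie higher in HGC27-FN1 3′-UTR cells, while *DDIT4* and *ADM2* lie lower.

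The 5 genes outside these lists whose values over the 6 libraries were most like the mean of the 10, by the root mean square difference of centred log2 values among 7314 genes at 5 RPKM or more, were *TRIM51CP* (0.064), *KIF1A* (0.074), *NEFL* (0.084), *RIBC2* (0.086) and *RP1-261G23.7* (0.093). That mean is nearly a step between the groups, from -0.45 to -0.38 in HGC27-FN1 3′-UTR libraries and from 0.39 to 0.44 in controls. Likeness to it is therefore likeness in the contrast that chose the 10, and shared regulation was not tested. All 188 exon bases of *RP1-261G23.7* lie within exons of *VEGFA* on the other strand, an ATF4 target described above, so its reads cannot be told apart from those of *VEGFA*. *KIF1A*, an axonal transport kinesin, was at 4.98, 4.64 and 4.76 against 8.45, 9.56 and 9.02 RPKM. *NEFL*, the light neurofilament chain, had a mean of 15.48 RPKM in HGC27-FN1 3′-UTR cells and 24.92 in control cells. Among the 10 themselves the same measure ran from 0.069 for *SESN2* and 0.079 for *ATF4* to 0.373 for *ATF5*.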

How the data were processed

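RNA-seq of 6 HGC27 libraries was used, 3 of each group, with groups and replicate numbers taken from the sample labels. The authors deposited RPKM per gene, 1 table per library, on GRCh38. The submitters' processing notes name Trimmomatic 0.36, STAR 2.5.3a and featureCounts of Subread 1.5.1. The strand setting of the counting and the annotation release are not given in the sources used here. RPKM times exon length gave whole reads for 100% of values (tolerance 0.01 read), and these reads gave depth and counting error. Read numbers cover counting error only, and whether molecular identifiers were used before counting cannot be told from the values.

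Values were taken as log2(RPKM + 0.1), which understates changes of low genes. The filter asked for 0.1 RPKM or more in 3 libraries. Groups were compared over all 6 libraries by limma 3.58.1 (R 4.3.3), with no other term and a trended variance prior, two-sided, with Benjamini-Hochberg adjustment over 23299 genes. On simulated reads it called 199 of 200 genes changed 4-fold and 32 of 23123 unchanged genes, and with no gene changed 10 of 23331. The simulation gave every gene the same spread beyond counting error and changed only genes above a floor of reads. Its rates are therefore not those of these data. The 32 false calls were a larger share of all calls in that simulation than the adjusted p threshold aims at. Smaller changes were not simulated, and those of the pathway lists, from -1.56 to 1.4 on the log2 scale, were all below 4-fold. The 199 calls therefore do not tell how often changes of that size are found. The replicates of a group differed by more than sampling noise.

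The 10 genes and all lists were chosen with earlier results of these data known. Named genes were the 10, the eIF2α kinases, *FN1*, of each list the 4 called genes with the largest changes at a mean RPKM of 1 or more without overlap between groups, and the 5 genes most like the mean of the 10. Other genes were named after their values had been seen, such as paralogues, secreted and cell death targets and genes with a promoter element. Alternatives were the pseudocount, the filter, the scaling, a replicate block, limma-voom on the reads, no trend, the study's criteria and each replicate left out. Promoter sequences are from RefSeq (GRCh38.p14). Python 3.11.15, pandas 2.3.3 and matplotlib 3.10.9 were used.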

Additional observations from a re-analysis of the deposited data

How the results depend on the processing

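All 10 genes kept a negative log2 fold change in all 15 settings. Their median was -0.61 with a pseudocount of 1 and between -0.73 and -0.67 with a replicate left out. Over all genes, 1310 were higher and 1715 lower as reported. These counts were 2042 and 3066 with limma-voom on the recovered reads, 385 and 190 at the study's criteria, and 501 to 927 higher and 470 to 1015 lower with a replicate left out, the fewest without control replicate 2. The study's criteria were applied here to the limma fit, so counts at them are not those the study reported. With median-ratio scaling the split turned to 1696 higher and 1330 lower, so 56.0% of calls were higher, beside 43.3%, while the 10 genes and the called pathway genes, 81 in all, kept their sign. Over the 162 tested pathway genes, 27 were higher and 44 lower as reported, 15 were higher without the variance trend, 4 were higher and 4 lower at the study's criteria, and 8 to 21 were higher and 29 to 37 lower with a replicate left out. The other ATF4 targets lower at an adjusted p under 0.05 numbered 26 to 32 over the settings at that threshold, while the higher calls numbered 1 to 9 for the eIF2 machinery and 3 to 10 for the IRE1 and ATF6 branches. The cause of these shifts was not tested.

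Same-numbered libraries of the groups did not deviate together (correlations of 0.0024, 0.021 and 0.01 over 23299 genes), so the numbers are not taken as pairs. With the number as a replicate block, 564 genes were higher and 598 lower, and of the pathway genes 10 were higher and 29 lower. Fewer residual degrees of freedom are part of that fit. *CHAC1*, with 36 reads in one library, is limited most by depth.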
